A study of Mus musculus with 8 samples.

Results

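Collagens, laminins and the other proteins of the extracellular matrix were followed in islet RNA from female NOD mice, which are prone to autoimmune diabetes. The members were chosen by symbol, as protein-coding genes named Col, Lama, Lamb, Lamc, Nid, Fbn or Fbln with a digit, together with a fixed set of single matrix genes that includes Fn1, Sparc, Dcn and Thbs1. This rule matched 78 genes of the GENCODE M21 annotation, of which 42 were in the deposited table of 13725 genes. One of the 42, Col4a3bp, matched by its spelling only, since it encodes a ceramide transfer protein and no collagen, which left 41 matrix genes. The other 36 genes of the rule, among them Hspg2, Postn, Nid2, Lama1, Lama2, Lama4, Lamb2 and Col4a3 to Col4a6, were not analysed here.

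Islets came from mice aged 10 weeks that were treated with vehicle or with PAHSA (lipids in which palmitic acid is esterified to a hydroxy stearic acid), and there were 4 libraries in each group. Every library carries the NOD genotype and is labelled as islet cells from pancreatic islets, with no other allele or agent named, and no label states the dose or length of treatment. The design text speaks of single mice and the labels' protocol of islets pooled from 2 mice, so a library may stand for either, and the p-values measure the spread between libraries. By its title, the study asked about senescence and about Mdm2 and p53 in stressed beta cells.

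Islets are clusters of endocrine cells that are surrounded and crossed by a basement membrane, a sheet of type IV collagen, laminins, nidogens and heparan sulphate proteoglycans that lies along the capillaries and at the islet border. Around it lies an interstitial matrix of fibrillar collagens, fibronectin, elastic fibres and small proteoglycans, made mostly by fibroblasts, stellate cells and pericytes. Endocrine cells bind these proteins through integrins and other receptors, and laminins and collagen IV are known to support insulin secretion and beta cell survival.

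The matrix genes were minor transcripts in these libraries. The CPM of the 41 matrix genes summed to 896, 640, 412 and 449 in vehicle replicates 1, 3, 4 and 5, and to 236, 414, 345 and 439 in PAHSA replicates 1, 2, 3 and 4. Vehicle replicates 1, 3 and 5 were above all PAHSA libraries, replicate 5 only just, vehicle replicate 4 lay within the PAHSA range, and PAHSA replicate 1 was the lowest of all. In RNA from whole islets, fewer matrix-producing cells and less matrix RNA per cell cannot be told apart. Per kilobase of the longest coding transcript, Sparc at 14.7 CPM per kb and Col3a1 at 13.3 were among the highest vehicle means. Sparc ranged from 7.03 to 26.3 CPM per kb over the vehicle libraries and Col3a1 from 4.00 to 21.3, so the order of these genes lies within their spread.

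**Figure D1:**
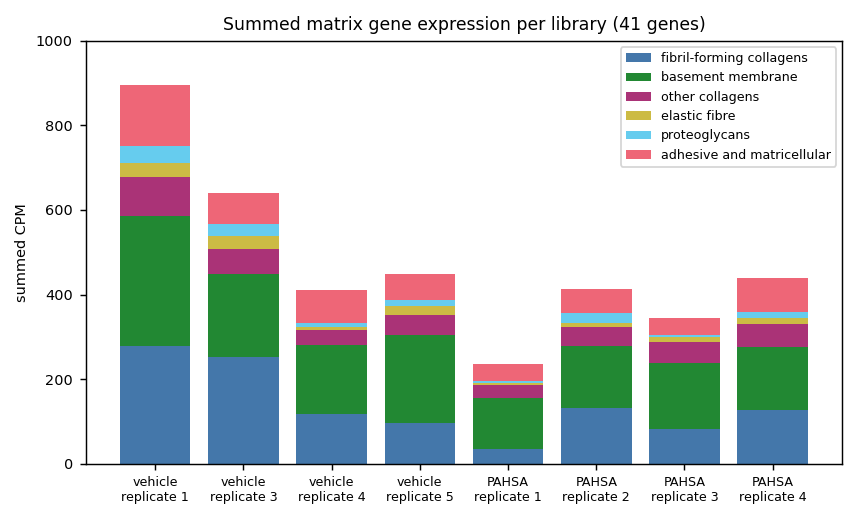
Summed CPM of the 41 matrix genes (y axis) in each of the 8 libraries (x axis), stacked by role. Vehicle replicates 1 and 3 reach 896 and 640 CPM, while vehicle replicate 5 (449) lies just above and vehicle replicate 4 (412) within the range of the PAHSA libraries (236 to 439).

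None of the 12231 genes tested with limma, matrix genes included, was called at an adjusted p of 0.05 (0 genes), and the smallest adjusted p was 0.671. At an unadjusted p under 0.05 stood 525 genes that were lower (4.29%) and 369 that were higher (3.02%) in PAHSA, 7.31% in either direction. Among the 42 members, 32 had a mean log2 CPM above 0 and were tested, the weakest of them Vtn at a mean of 0.24, while Col25a1 at -0.05 was the nearest one left out. Of these 32, 26 had a lower and 6 a higher mean in PAHSA, whereas 50.9% of all genes tested were lower. At an unadjusted p under 0.05, 9 members were lower (28.1% of 32, beside the 4.29% over all genes) and 0 were higher. The median difference of the 32 was -0.76 on the log2 scale (-0.80 without Col4a3bp), and that of all genes tested was -0.01. No single member is called by this test, and the count is a description of the list.

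The lower members included Fbn1, Col5a2, Col18a1, Dcn, Col4a1, Vtn, Col5a1 and Lamb1. The count of 9 became 5 once the acinar marker mean was a covariate. With that covariate 28 of the 32 members were lower at any p, and their median difference was -0.85. With no filter beyond the authors' the count was 14 of 42, beside 4.52% of all genes. In that fit 36 of the 42 members had lower means, beside 52.3% of all genes. Lum, which met the authors' filter only through its vehicle libraries, is among them, and without it the counts were 13 and 35 of 41. Of 15 listed acinar markers 14 were in the table, and all 13 tested ones had lower means in PAHSA. At an unadjusted p under 0.05, 10 of these were lower, beside 4.29% of all genes tested. The CPM of the 14 summed to 9057, 9339, 36760 and 22940 in vehicle replicates 1, 3, 4 and 5. In PAHSA replicates 1 to 4 the sums were 3332, 13673, 8624 and 417. Vehicle replicates 1 and 3, which had the highest matrix sums, had the lowest acinar sums of their group. PAHSA replicate 4, with the highest matrix sum of its group, had the lowest acinar sum. In contrast, PAHSA replicate 1, with the lowest matrix sum of all (236), also had a low acinar sum (3332). PAHSA replicate 2 had the highest acinar sum of its group (13673) with a matrix sum of 414. The part of acinar cells in the matrix differences was not tested.

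**Figure D2:**
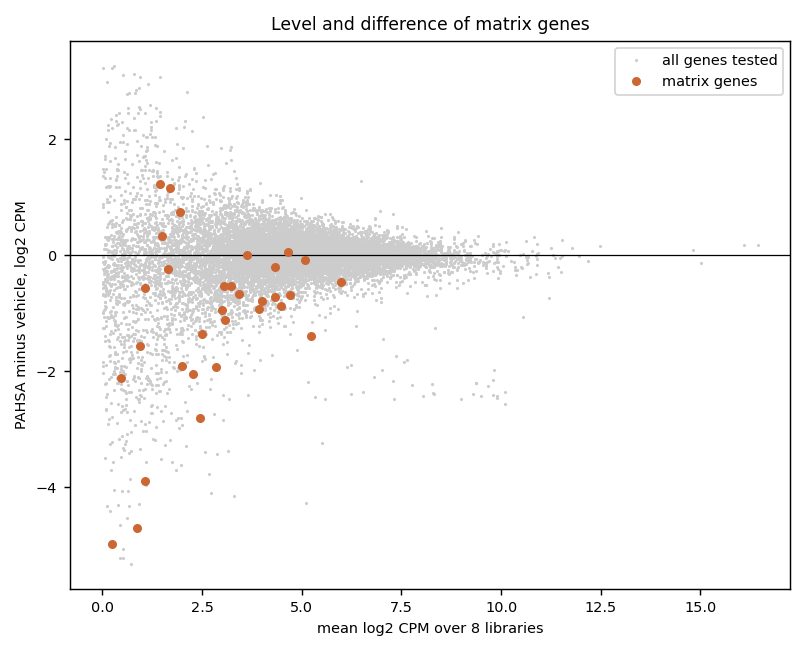
The difference, PAHSA minus vehicle in log2 CPM (y axis), against the mean log2 CPM over 8 libraries (x axis) for all 12231 genes tested (grey) and the 32 tested members (orange). Of the 32 members 26 lie below 0, and the differences beyond -3 belong to members with a mean near 1 or below.

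Low values need care here. A value at the lowest point of its column corresponds to 0 estimated counts, and 1 count was worth between 0.0221 and 0.0284 CPM. Over the 42 members, 5 of 168 vehicle values and 20 of 168 PAHSA values lay at that lowest point. Per library these were 0 to 4 of the 42 members in vehicle and 2 to 7 in PAHSA. Over the whole table, 59 to 218 of 13725 genes per vehicle library and 211 to 295 per PAHSA library lay there too. The excess of lowest values in PAHSA was therefore not limited to matrix genes. In every PAHSA library, and in vehicle replicates 4 and 5, the share at the lowest value was larger among the members than over the whole table. Vehicle replicate 4 had 4 members there and PAHSA replicate 2 had 2. The share over genes of similar expression level was not computed. Of 948 genes at the lowest value in some library, 40 were well expressed in the others, with a mean of the 5 highest libraries above 3 log2 CPM. Members at the lowest value in some library are described below by their values or by the libraries concerned. Any difference given for such a member includes those values unless a library is left out. Of the 26 tested members never listed at the lowest value, 7 were lower at an unadjusted p under 0.05. The 7 include Dcn, which was at 1 estimated count in PAHSA replicates 1 and 3. The share over all genes never at the lowest value was not computed.

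**Figure D3:**
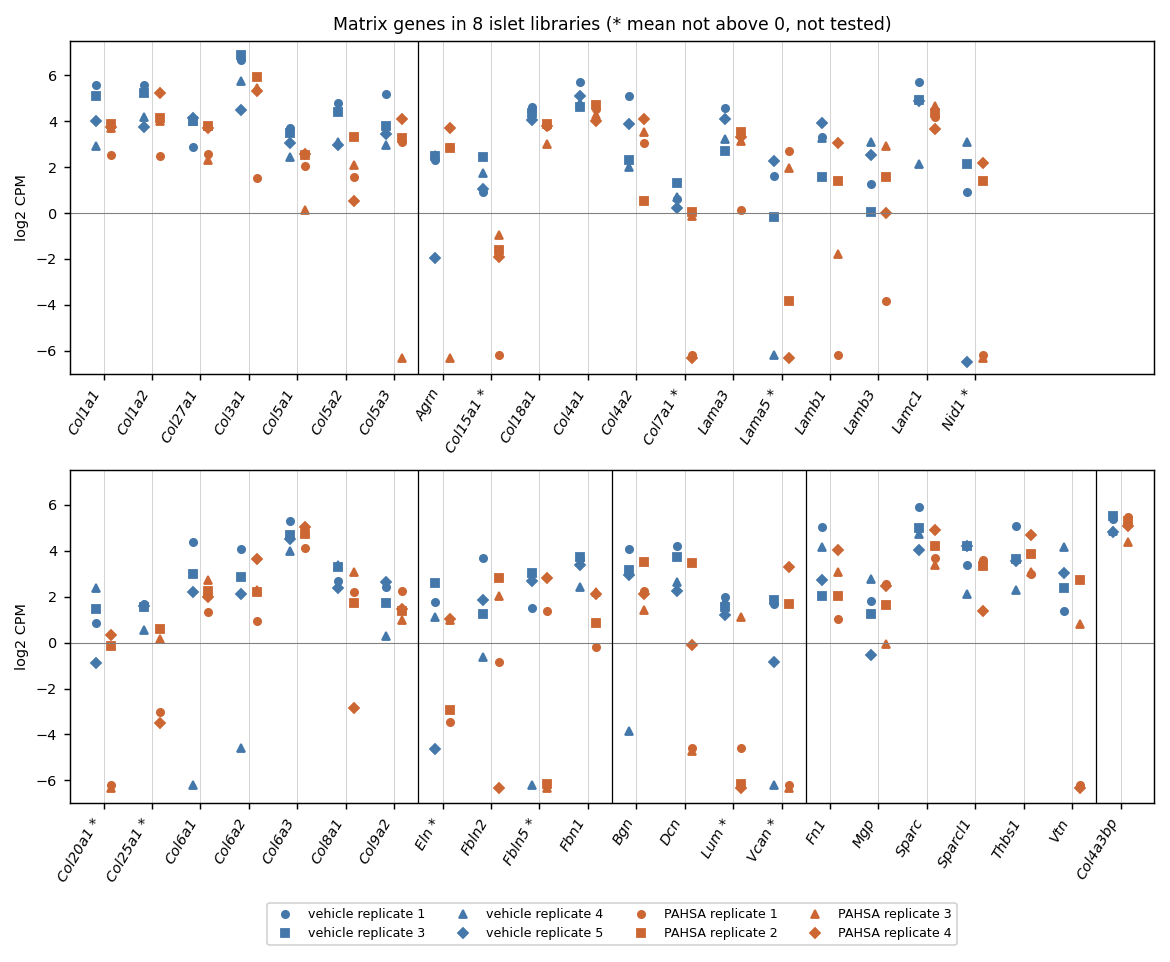
The log2 CPM (y axis) of 41 of the 42 members (x axis, grouped by role and divided by black lines) in 4 vehicle (blue) and 4 PAHSA (orange) libraries, with 1 symbol per replicate. Among strongly expressed members, Col6a3 and Col4a3bp vary by little more than 1 log2 unit. Col3a1, also strongly expressed, runs from 1.51 in PAHSA replicate 1 to 6.89 in vehicle replicate 3. Weak members such as Lum, Vcan and Nid1 fall to about -6 in some libraries. Asterisks mark the 10 members that were not tested.

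Sequences upstream of 3 collagen genes are given to show the range of start regions in the list, from the RefSeq promoter table on GRCm38.p6. They belong to Col5a1 and Col3a1, whose products assemble into the same fibrils, and to Col15a1, whose libraries did not overlap between the groups. Each is the 250 bases before the annotated start, on the gene's strand, and none overlaps an exon of GENCODE M21. Capitals mark the GC box GGGCGG, the CCAAT box and the TATA box TATAAA on either strand.
Col5a1: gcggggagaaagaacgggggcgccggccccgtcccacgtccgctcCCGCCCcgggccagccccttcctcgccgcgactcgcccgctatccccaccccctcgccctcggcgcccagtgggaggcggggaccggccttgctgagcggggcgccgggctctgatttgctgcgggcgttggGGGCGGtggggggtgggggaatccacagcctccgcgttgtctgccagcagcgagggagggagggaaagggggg
Col3a1: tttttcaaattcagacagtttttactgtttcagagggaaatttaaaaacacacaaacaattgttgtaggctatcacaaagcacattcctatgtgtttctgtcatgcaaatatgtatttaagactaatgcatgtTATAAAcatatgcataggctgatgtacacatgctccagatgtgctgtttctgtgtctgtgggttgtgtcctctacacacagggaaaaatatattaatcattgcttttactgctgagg
Col15a1: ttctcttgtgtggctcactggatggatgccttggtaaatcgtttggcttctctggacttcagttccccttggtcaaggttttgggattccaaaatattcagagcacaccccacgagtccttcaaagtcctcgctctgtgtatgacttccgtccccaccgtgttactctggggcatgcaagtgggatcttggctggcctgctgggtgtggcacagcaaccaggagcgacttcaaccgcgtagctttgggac
The Col5a1 window is chr2:27886175-27886424 (plus strand) and holds 2 GC boxes. The Col3a1 window is chr1:45311288-45311537 (plus strand), holds 1 TATAAA and no GC box, and the Col15a1 window is chr4:47207762-47208011 (plus strand), with none of the 3. Windows were found for 29 of the 42 members, 34 in all. A GC box stood in 64.7% of these 34 windows and in 32.7% of all 32851, a CCAAT box in 32.4% and 33.8%, and TATAAA in 5.88% and 12.4%. The palindromic SMAD box GTCTAGAC, which contains no other motif searched, was in 0 of 34 and in 0.167% of all windows. That share is too low for 34 windows to tell the members from other genes.

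Fibril-forming collagens, the rope-like proteins that give connective tissue its tensile strength, had lower means in PAHSA in all 7 members tested. Their median difference was -1.36, and 2 of the 7 were lower at an unadjusted p under 0.05. Type V collagen, which nucleates fibrils and limits their width, supplied both. Col5a2, one of its chains, was at 4.78, 4.40, 3.08 and 2.95 log2 CPM in vehicle replicates 1, 3, 4 and 5 and at 1.57, 3.30, 2.09 and 0.53 in PAHSA replicates 1, 2, 3 and 4. Only PAHSA replicate 2 reached into the vehicle range. The difference was -1.93 (SE 0.62; limma adjusted p = 0.671), with means of 3.80 ± 0.92 and 1.87 ± 1.16 (SD, n = 4), and it was -1.27 with the acinar covariate. Col5a2 (ENSMUSG00000026042) lies on chromosome 1 from 45374321 to 45503282 in GRCm38, 24614 bases from Col3a1.

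Col5a1, the other main chain of type V, was at 3.72, 3.49, 2.43 and 3.06 log2 CPM in vehicle and at 2.04, 2.52, 0.12 and 2.57 in PAHSA. PAHSA replicates 2 and 4 lay just above the lowest vehicle library. The difference was -1.36 (SE 0.58), and -0.80 without PAHSA replicate 3. Col5a3 was at 5.18, 3.77, 2.98 and 3.44 in vehicle and at 3.11, 3.28, -6.31 and 4.11 in PAHSA, where replicate 3 was listed at the lowest value. The other PAHSA libraries lay within the vehicle range, and the difference of -2.80 (SE 1.91) was -0.35 without replicate 3.

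The major collagens of interstitial tissue had lower means, but with overlapping groups. Col1a1, which with Col1a2 forms type I collagen, was at 5.55, 5.12, 2.91 and 4.00 log2 CPM in vehicle and at 2.52, 3.87, 3.72 and 3.73 in PAHSA, a difference of -0.94 (SE 0.54; -0.55 without vehicle replicate 1). Col1a2 was at 5.56, 5.24, 4.17 and 3.74 in vehicle and at 2.50, 4.14, 3.99 and 5.20 in PAHSA, a difference of -0.72 (SE 0.56; -0.23 without PAHSA replicate 1). For both chains vehicle replicates 1 and 3 were high and PAHSA replicate 1 was low. Col3a1, the type III chain, ranged from 4.48 to 6.89 in vehicle and was at 1.51, 5.91, 5.43 and 5.32 in PAHSA. Its difference of -1.40 had a wide 95% confidence interval, from -3.33 to 0.54, and was -0.39 without PAHSA replicate 1. Col27a1, a fibrillar collagen best known from cartilage, differed by -0.66 (SE 0.43; -0.40 without PAHSA replicate 3).

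Basement membrane genes had lower means in PAHSA in all 9 members tested, with a median of -0.68, and 4 of them had an unadjusted p under 0.05. Col18a1 encodes a basement membrane collagen whose end fragment is endostatin. It was at 4.62, 4.37, 4.59 and 4.04 log2 CPM in vehicle and at 3.78, 3.85, 3.02 and 3.78 in PAHSA. Every PAHSA library lay below every vehicle library, and the difference was -0.80 (SE 0.26; limma adjusted p = 0.671). Such a separation held for 2 of 32 tested members (6.25%), Col18a1 and Fbn1, and for 238 of all genes tested (1.95%). Of the members that were not tested, Col15a1, Col7a1 and Lum were separated too, beside 1.99% of the whole table, but Lum met the authors' filter only through its vehicle libraries (4 of them and 1 PAHSA library), so its separation is partly fixed by that filter. The converse, with every PAHSA library above every vehicle library, held for 0 members and for 2.06% of all genes tested. Col18a1 (ENSMUSG00000001435) lies on chromosome 10 from 77052178 to 77166548.

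Col4a1 and Col4a2 encode the collagen IV chains present in all basement membranes and are known to be transcribed in opposite directions from a shared promoter. On chromosome 8 the annotated genes (11198423 to 11312826 on the minus strand and 11312805 to 11449287 on the plus strand) overlap by 22 bases at their 5′ ends. Col4a1 was at 5.69, 4.60, 4.80 and 5.09 log2 CPM in vehicle and at 4.52, 4.68, 4.26 and 4.00 in PAHSA, so that only PAHSA replicate 2 lay above the lowest vehicle library. Its difference was -0.68 (SE 0.26; -0.47 without vehicle replicate 1). Col4a2 was at 5.07, 2.29, 2.03 and 3.86 in vehicle and at 3.04, 0.51, 3.51 and 4.09 in PAHSA, with a difference of -0.53 (SE 0.84) whose 95% confidence interval ran from -2.38 to 1.33. Its sign turned without vehicle replicate 1 (0.06) and without PAHSA replicate 2 (0.23). The library kit does not mark the strand, so reads from the short overlap cannot be assigned to either gene by strand.

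Laminins are cross-shaped trimers of an alpha, a beta and a gamma chain. The 4 laminin genes described here had lower means in PAHSA, and Lamb1 alone of these 4 had an unadjusted p under 0.05. Lama3 and Lamb3 encode chains of epithelial laminins. Lama3 was at 4.56, 2.72, 3.22 and 4.07 log2 CPM in vehicle and at 0.15, 3.51, 3.15 and 3.31 in PAHSA, where replicate 1 stood far below the others (-1.12, SE 0.72; -0.32 without it). Lamb3 ranged from 0.05 to 3.10 in vehicle and from -3.82 to 2.92 in PAHSA (-1.57, SE 1.31; -0.24 without PAHSA replicate 1).

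Lamb1 and Lamc1 encode the beta and gamma chains of the most widespread laminins. Lamb1 was at 3.32, 1.58, 3.27 and 3.91 log2 CPM in vehicle and at -6.19, 1.41, -1.79 and 3.06 in PAHSA. PAHSA replicate 1 was listed at the lowest value and replicate 4 lay inside the vehicle range, so the difference of -3.90 (SE 1.65) was -2.12 without PAHSA replicate 1 and -1.85 on log2(CPM + 1). Lamc1 was at 5.70, 4.93, 2.14 and 4.90 in vehicle and at 4.20, 4.36, 4.65 and 3.67 in PAHSA, and its difference of -0.20 (SE 0.63) became 0.23 without vehicle replicate 1. Agrn, a heparan sulphate proteoglycan, was between 2.30 and 2.54 in vehicle replicates 1, 3 and 4 and at -1.98 in replicate 5, and in PAHSA it was at 2.89, 2.82, -6.31 and 3.72. Without PAHSA replicate 3 its difference of -0.56 turned to 1.80.

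Of the 13 basement membrane members in the table, 4 were too weak to be tested. Col15a1, a collagen of the basement membrane zone of vessels and muscle, was at 0.94, 2.42, 1.73 and 1.06 log2 CPM in vehicle and at -6.19, -1.63, -0.95 and -1.93 in PAHSA. In estimated counts these were 67, 219, 120 and 94 against 0, 11, 20 and 10, with no overlap. Col7a1, the anchoring fibril collagen, was at 0.60, 1.31, 0.69 and 0.21 in vehicle and at -6.19, 0.04, -0.12 and -6.32 in PAHSA, also with no overlap although vehicle replicate 5 and PAHSA replicate 2 were close. Nid1, which links laminin to collagen IV, was listed at the lowest value in vehicle replicate 5 and in PAHSA replicates 1 and 3 and lay between 0.94 and 3.08 in the others. Lama5, a laminin chain of mature endothelium, was at the lowest value in 1 library of each group.

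Chains of one trimer did not always keep their ratio from library to library. Per kb of transcript, the log2 ratio of Col1a1 to Col1a2 was -0.43 ± 0.67 in vehicle and -0.65 ± 0.66 in PAHSA (SD, n = 4). That of Col4a1 to Col4a2 spread over 4.26 log2 units among the 8 libraries, from -0.12 in PAHSA replicate 4 to 4.14 in PAHSA replicate 2. For Col6a1 and Col6a2 the ratio lay between 0.19 and 0.63 in 6 libraries and was -1.49 in PAHSA replicate 4, while vehicle replicate 4, with 0 and 1 estimated counts, gives no usable ratio. For the type I and IV pairs the group means differed by less than the SD within either group.

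**Figure D4:**
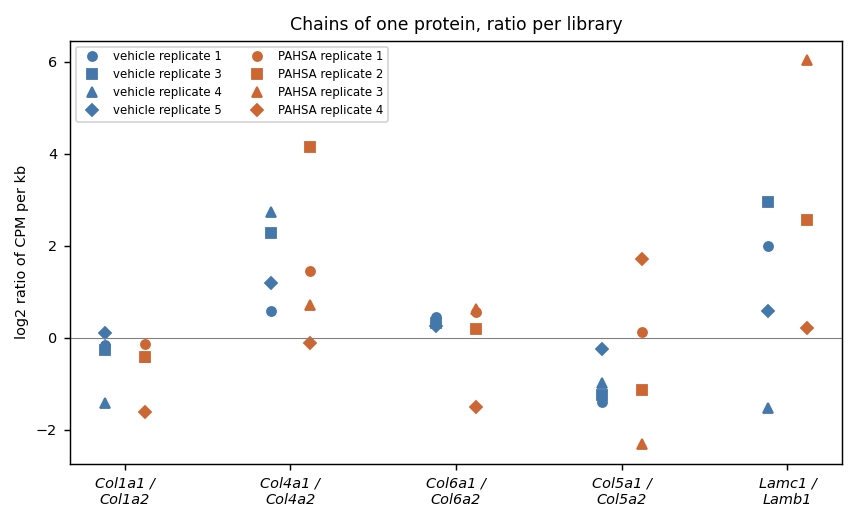
The log2 ratio of CPM per kb of the longest coding transcript (y axis) for 5 pairs of chains that can share a trimer (x axis), with 1 symbol per library, vehicle in blue and PAHSA in orange. Col1a1 and Col1a2 stay within 1.74 log2 units over the 8 libraries, whereas Lamc1 to Lamb1 spreads over 7.56 in the 7 libraries drawn; libraries with 3 or fewer estimated counts of either chain are left out (vehicle replicate 4 for type VI, PAHSA replicate 1 for Lamc1 and Lamb1).

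Other collagens showed no common direction. The 3 type VI genes, which form the beaded microfibrils around cells, had higher means in PAHSA, though none kept that sign under all settings. Col6a3 was at 5.28, 4.68, 3.99 and 4.53 log2 CPM in vehicle and at 4.10, 4.71, 4.81 and 5.04 in PAHSA, a difference of 0.05 (95% confidence interval -0.60 to 0.70). Col6a1 was between 2.18 and 4.36 in vehicle replicates 1, 3 and 5, at -6.18 in replicate 4, and at 1.32, 2.23, 2.73 and 1.97 in PAHSA. Col6a2 was at 4.09, 2.86, -4.59 and 2.10 in vehicle and at 0.94, 2.22, 2.28 and 3.65 in PAHSA. The higher means rest on vehicle replicate 4, without which the differences were -1.12 for Col6a1, -0.74 for Col6a2 and -0.16 for Col6a3, which was also at -0.07 without PAHSA replicate 4.

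Col8a1, a short-chain collagen of vessel walls, was between 2.39 and 3.38 log2 CPM in vehicle and at 2.19, 1.72, 3.06 and -2.86 in PAHSA (-1.91, SE 1.08; -0.62 without PAHSA replicate 4 and 0.15 with the acinar covariate). Col9a2, a collagen of the fibril surface, differed by -0.24 (SE 0.61). The transmembrane collagen gene Col25a1 and the fibril-associated Col20a1 were not tested. Col25a1 was at 1.69, 1.53, 0.54 and 1.60 in vehicle and at -3.02, 0.59, 0.16 and -3.51 in PAHSA, and PAHSA replicate 2 lay just above the lowest vehicle library. Col20a1 was between -0.88 and 2.36 in vehicle and was listed at the lowest value in PAHSA replicates 1 and 3.

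Elastic fibre genes were represented by Fbn1, Fbln2, Fbln5 and Eln, all with lower means in PAHSA. Fbn1 encodes fibrillin-1, the microfibril protein that scaffolds elastin and binds latent TGF-beta complexes, and had the smallest p of the 32 tested members. It was at 3.66, 3.70, 2.42 and 3.38 log2 CPM in vehicle and at -0.17, 0.86, 2.19 and 2.11 in PAHSA. The groups did not overlap, though PAHSA replicates 3 and 4 came close to vehicle replicate 4. The difference was -2.04 (SE 0.59; 95% confidence interval -3.34 to -0.74; limma adjusted p = 0.671), with means of 3.29 ± 0.60 and 1.25 ± 1.13 (SD, n = 4). Fbn1 (ENSMUSG00000027204) lies on chromosome 2 from 125300594 to 125507993.

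Fbln2, a fibulin of elastic and basement membrane matrix, was at 3.70, 1.23, -0.62 and 1.84 log2 CPM in vehicle and at -0.84, 2.82, 2.02 and -6.32 in PAHSA (-2.12, SE 1.79; -0.20 without PAHSA replicate 4 and 1.09 with the acinar covariate). The untested Fbln5, which helps to assemble elastic fibres, was listed at the lowest value in vehicle replicate 4 and in PAHSA replicates 2 and 3. Eln, elastin itself, ranged from -4.62 to 2.61 in vehicle and from -3.44 to 1.03 in PAHSA. The groups overlapped in these 3 genes.

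Among the small proteoglycans, Dcn and Lum, neighbours 46984 bases apart on chromosome 10 and both regulators of collagen fibril spacing, were both near 0 counts in several PAHSA libraries. Dcn was at 4.22, 3.73, 2.64 and 2.26 log2 CPM in vehicle and at -4.61, 3.47, -4.73 and -0.09 in PAHSA, or 655, 546, 225 and 216 estimated counts against 1, 395, 1 and 37. PAHSA replicate 2 lay within the vehicle range and the other 3 far below it. The difference of -4.70 (SE 1.61) was -2.21 on log2(CPM + 1). Lum, not tested, was at 1.98, 1.55, 1.83 and 1.18 in vehicle and at -4.61, -6.15, 1.11 and -6.32 in PAHSA. Its estimated counts were 139, 120, 128 and 102 in vehicle and 1, 0, 85 and 0 in PAHSA, so that PAHSA replicate 3 came close to the vehicle libraries. PAHSA replicate 2, high for Dcn, was at 0 counts of Lum, and PAHSA replicate 3, at 1 count of Dcn, was the only PAHSA library with more than 1 count of Lum.

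Bgn, another small leucine-rich proteoglycan, went the other way in its mean, at 4.06, 3.18, -3.86 and 2.95 log2 CPM in vehicle and at 2.24, 3.52, 1.42 and 2.12 in PAHSA. Its difference of 0.75 (SE 1.46) turned to -1.07 without vehicle replicate 4. Vcan, a large proteoglycan that binds hyaluronan, was not tested and was listed at the lowest value in vehicle replicate 4 and in PAHSA replicates 1 and 3.

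Adhesive and matricellular genes, whose products link cells to the matrix or modulate that link, had 4 lower and 2 higher means among 6 tested. Sparc, a collagen-binding protein, was at 5.92, 4.98, 4.75 and 4.01 log2 CPM in vehicle and at 3.68, 4.20, 3.40 and 4.90 in PAHSA, a difference of -0.87 (SE 0.42; -0.54 without vehicle replicate 1) with overlapping groups. Vtn, the adhesive protein vitronectin, was at 1.36, 2.36, 4.16 and 3.03 in vehicle and at -6.19, 2.70, 0.81 and -6.32 in PAHSA. PAHSA replicates 1 and 4 were listed at the lowest value, and replicate 2 was inside the vehicle range. The difference of -4.98 (SE 1.92) was -1.87 on log2(CPM + 1) and -0.95 with the acinar covariate.

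Fn1, fibronectin, was at 5.03, 2.02, 4.16 and 2.74 log2 CPM in vehicle and at 1.02, 2.02, 3.06 and 4.04 in PAHSA (-0.95, SE 0.76; -0.44 without vehicle replicate 1 and -0.45 without PAHSA replicate 1). Thbs1, an activator of latent TGF-beta, was at 5.07, 3.62, 2.28 and 3.55 in vehicle and at 2.97, 3.83, 3.07 and 4.70 in PAHSA, a difference of 0.01 (SE 0.57) whose sign changed with the scaling. Sparcl1 differed by -0.52 (SE 0.60; 0.01 without PAHSA replicate 4). Mgp, an inhibitor of calcification, differed by 0.32 (SE 0.81; -0.29 without vehicle replicate 5).

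**Figure D5:**
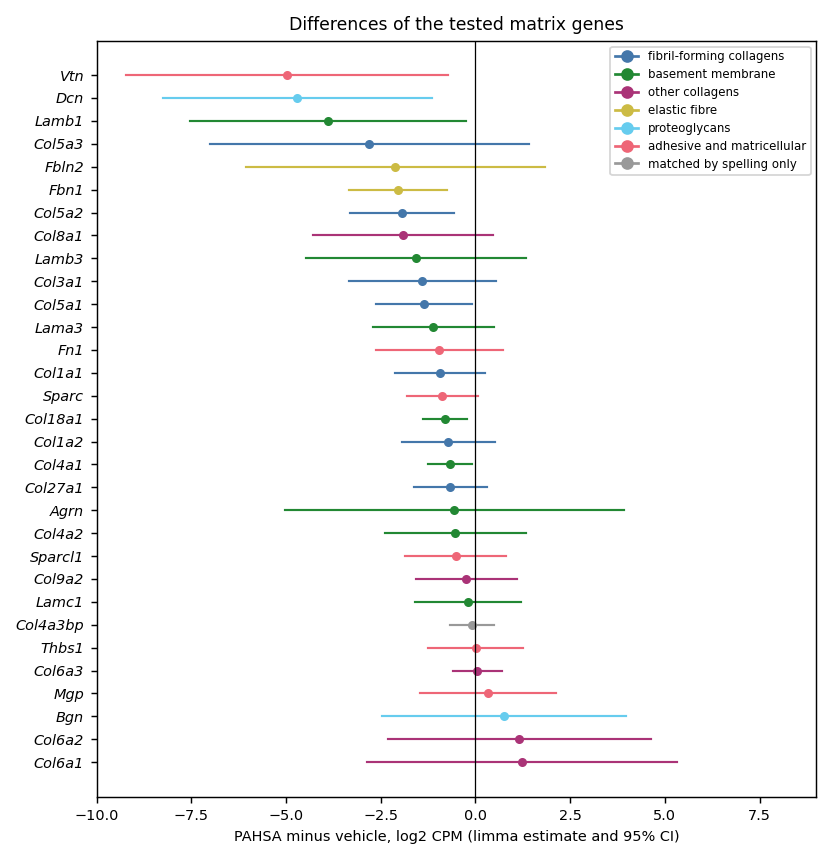
The difference, PAHSA minus vehicle in log2 CPM, with its 95% confidence interval from limma (x axis) for 31 of the 32 tested members (y axis), coloured by role. The intervals of 8 members lie wholly below 0 and none lies wholly above it, and the widest belong to genes listed at the lowest value in some library, such as Agrn, Vtn and Col5a3.

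Enzymes that modify and crosslink collagen were followed as a list of 29 genes, of which 22 were tested. In PAHSA 14 had lower and 8 higher means, 6 were lower and 0 higher at an unadjusted p under 0.05, and 0 passed over all genes, beside 50.9% of all tested genes lower at any p and 4.29% lower at that level. P4ha1, a catalytic subunit of prolyl 4-hydroxylase, differed by -0.52 (SE 0.15) and the related P4ha2 by -0.39 (SE 0.12). P4hb, their shared partner and also a general protein disulphide isomerase of the endoplasmic reticulum, differed by -0.33 (SE 0.12). Plod3, a lysyl hydroxylase, differed by -0.47 (SE 0.14).

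Serpinh1, which encodes the collagen chaperone HSP47, was at 5.07, 4.39, 4.29 and 4.18 log2 CPM in vehicle and at 3.37, 3.80, 3.62 and 3.94 in PAHSA. The groups did not overlap, and the difference was -0.80 (SE 0.26). The groups did not overlap for P4ha2, P4hb and Loxl1 either, while they did for P4ha1 and Plod3. Over all genes tested, 1.95% had every PAHSA library below every vehicle library. Apart from Loxl1, the genes named here from the list have small p-values, which favours separated groups.

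Of 33 listed matrix proteases and inhibitors, 17 were tested. There were 14 with lower and 3 with higher means, 7 lower and 0 higher at an unadjusted p under 0.05 (4.29% lower over all genes), and 0 called over all genes. The protease inhibitors Timp1 and Timp3 differed by -1.17 (SE 0.35) and -1.04 (SE 0.33), the urokinase receptor gene Plaur by -1.33 (SE 0.40), and the protease gene Adamts9 by -2.79 (SE 0.85). Mmp9, a gelatinase, was at 4.21, 2.51, 2.58 and 2.89 log2 CPM in vehicle and at -6.19, -6.15, 1.85 and 2.41 in PAHSA. The groups did not overlap, although PAHSA replicate 4 came close to the lowest vehicle library. Such a separation held for 1.95% of all genes tested.

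Matrix receptors were mostly lower in their means, with 18 lower and 5 higher of 23 tested, 4 lower and 1 higher at an unadjusted p under 0.05 (4.29% and 3.02% over all genes), and 0 called over all genes. Sdc1, a heparan sulphate receptor, was at 5.09, 5.24, 4.60 and 4.59 log2 CPM in vehicle and at 3.85, 4.01, 3.77 and 3.99 in PAHSA. No PAHSA library reached the vehicle range, and the difference was -0.97 (SE 0.22). Such a separation, which held for Itga6 and Itgb4 too, was found in 1.95% of all genes tested. Itga6 and Itgb4 encode a laminin-binding integrin. Itga6 was at 5.31, 5.47, 4.82 and 5.16 in vehicle and at 4.32, 4.65, 4.77 and 4.69 in PAHSA (-0.59, SE 0.19). Itgb4 was between 2.14 and 4.23 in vehicle and at 1.06, -4.57, 2.05 and -6.32 in PAHSA. The higher gene was Sdc3, at 0.60 (SE 0.26), while Itgb1, the common beta chain of most matrix integrins, differed by -0.19 (SE 0.14).

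The TGF-beta list, of ligands, receptors and other genes tied to matrix induction, had 9 lower and 6 higher means among 15 tested, 2 lower and 0 higher at an unadjusted p under 0.05, and 0 called over all genes, beside shares over all genes of 50.9% lower and of 4.29% lower at that level. Ccn1, a matricellular gene, was at 3.44, 3.78, 4.26 and 3.42 log2 CPM in vehicle and at 2.10, 3.13, 2.70 and 2.03 in PAHSA (-1.23, SE 0.36). Its groups did not overlap, as was so in this direction for 1.95% of all genes tested. Its relative Ccn2, also known as connective tissue growth factor, differed by -0.33 (SE 0.39). The receptor gene Tgfbr1 differed by -0.38 (SE 0.16) and Skil, a repressor of SMAD signalling, by -0.47 (SE 0.26).

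Markers of the cells that make matrix were weak. Of 14 listed markers of stellate cells, fibroblasts and pericytes outside the members, 7 were in the table, and of the 5 tested 3 were lower and 2 higher, 0 at an unadjusted p under 0.05. Over all genes tested 50.9% were lower at any p, and 4.29% were lower and 3.02% higher at that level. The CPM of the 7 markers summed to 41.7, 33.0, 14.9 and 9.24 in vehicle and to 13.5, 13.6, 7.75 and 25.9 in PAHSA, and the groups overlapped. As with the matrix sum, vehicle replicates 1 and 3 were the highest. Pdgfra was at 3.10, 2.79, 1.90 and -1.81 log2 CPM in vehicle and at -0.99, -1.88, -3.04 and 1.73 in PAHSA, whereas Pdgfrb differed by -0.29 (SE 0.79). Rgs5 was lower too, at -2.20 (SE 1.06), while Acta2 (0.55, SE 0.84) and Tagln (0.26, SE 0.64) were higher. The part of these cells in the matrix differences was not tested.

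Endothelial markers, 7 of 14 in the table, summed to between 38.2 and 73.9 CPM in vehicle and between 31.3 and 46.2 in PAHSA, and Pecam1 differed by -0.16 (SE 0.26). Duct markers, 9 of 11 in the table, had 7 lower and 2 higher means, beside 50.9% lower over all genes tested. At an unadjusted p under 0.05, 4 were lower and 0 higher, beside 4.29% and 3.02% over all genes. The duct markers summed to between 4244 and 6179 CPM in vehicle and between 3472 and 4435 in PAHSA. Only 2 of 8 Schwann cell markers and 1 of 5 mesothelial markers were in the table. Macrophage and dendritic cell markers, 3 of 12 in the table, summed to between 184 and 428 CPM in vehicle and between 138 and 278 in PAHSA, and 2 of 9 T and B cell markers were there. What share the duct, endothelial and immune cells had in the matrix differences was not tested. The beta cell markers summed to between 136567 and 179405 CPM in vehicle and between 140814 and 175161 in PAHSA, and 10 of 10 were in the table and tested. Of these 2 had lower and 8 higher means. At an unadjusted p under 0.05, 1 was lower and 3 were higher, beside 4.29% lower and 3.02% higher over all genes. The lower one was Pcsk1 at -0.39 (SE 0.15), with overlapping groups, and Iapp also had a lower mean (-0.14, SE 0.12). The higher ones were Ucn3 at 0.77 (SE 0.15), without overlap of the groups, Slc2a2 at 0.64 (SE 0.27) and Mafa at 0.40 (SE 0.16). Every PAHSA library lay above every vehicle library in 2.06% of all genes tested. In the table were also 5 of 5 alpha cell and 3 of 3 delta cell markers.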

How the data were processed

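The authors deposited 1 table of log2 CPM, CPM being counts scaled to an effective library size, for 13725 Ensembl genes in 8 columns, all matched to a library by name. The submitters' processing notes name kallisto and limma without versions; build and annotation: not given in the sources used here. Libraries were prepared from column-purified RNA by Nextera XT, per the labels' protocols; this kit is not known to mark the strand. In the deposited values every gene reached 0.258 CPM in at least 5 libraries, so a filter had been applied; 1 member (Lum) passed with 4 vehicle libraries and 1 PAHSA library at that level. Estimated counts were recovered from the lowest value of each column, taken as 0 counts with 0.5 added, and summed to between 34461742 and 45236238 per library. Counting error, and the sharing of reads among similar transcripts, limit the precision of weak genes.

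Symbols and GRCm38 positions came from GENCODE M21 by identifier, without a match for 56. Genes with a mean log2 CPM above 0 (12231) were tested with limma 3.58.1 in R 4.3.3, with a mean-variance trend, group as the only term, two-sided, Benjamini-Hochberg adjustment over all genes and a threshold of 0.05. The fit was tested on simulated data. Differences are in log2 CPM, PAHSA minus vehicle, with SE and interval from limma and SD over 4 libraries. The members, the role groups, the pathway and marker lists and the rule for named genes (all members at an unadjusted p under 0.05, the 3 with the smallest p and the 2 most abundant of each role, members at a lowest value, those nearest the expression filter, the 3 smallest p of each pathway list, and always Dcn, Sparc, Col1a1, Col1a2, Col3a1, Col4a1, Col4a2 and Fn1) were chosen with earlier results of these data known. Further genes are named to complete a pair or family. Alternatives were other filters, log2(CPM + 1), other scalings and variance models, an acinar covariate, a replicate block and leaving out each library. One member is not reported here by name, though it stays in the fits, sums and counts.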

Additional observations from a re-analysis of the deposited data

Results flagged for a closer look

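In 12 of 84 sets of 4 libraries (each of the 42 members in each group), 1 library stood apart from the other 3 by Dixon's test at the 95% level. Chance does so in about 1 set in 20 if values are normally distributed and sets independent. Some flagged values lay at 0 estimated counts and the members share libraries, so 12 of 84 cannot be read as an excess. The same count over all genes was not made. In log2 CPM, PAHSA replicate 1 was low for Col1a1 (2.52), Col3a1 (1.51) and Lama3 (0.15), and PAHSA replicate 3 was low for Col5a3 (-6.31), Agrn (-6.31) and Col18a1 (3.02). PAHSA replicate 4 was low for Sparcl1 (1.36). Vehicle replicate 4 was low for Col25a1 (0.54), Fbln5 (-6.18) and Bgn (-3.86), vehicle replicate 5 for Agrn (-1.98) and vehicle replicate 1 for Col27a1 (2.85). All 12 were the lowest library of their set.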

How the results depend on the processing

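No gene passed the adjusted threshold in limma under any alternative listed in processing, and 894 of 12231 genes had an unadjusted p under 0.05 in either direction. The count of members lower at that level, 9, was 14 with no filter, 5 with the acinar covariate, and 6 to 9 when 1 library was left out. Over the pathway lists the count of higher genes, 1, was 2 with no filter, on log2(CPM + 1), with quantile normalization and with the replicate block, 0 with library weights or the acinar covariate, and 0 to 2 when 1 library was left out. The median difference of the tested members lay between -1.06 and -0.54 under all of these. Libraries with the same replicate number did not deviate together (correlations of deviations -0.0202, -0.0169 and -0.0309 for numbers 1, 3 and 4). These values cannot show whether the libraries were prepared in pairs. The replicate block on the 6 libraries with these numbers gave 9 lower members, as did the same libraries without it.

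The sign of 14 members turned in 44 values, and the cause was not tested. On log2(CPM + 1) it turned for Agrn (0.38), Bgn (-0.057), Col6a1 (-0.14) and Thbs1 (-0.0025), with quantile normalization for Agrn (0.55) and with median centring for Thbs1 (-0.0012). With library weights it turned for Bgn (-0.17), Col6a1 (-0.027), Col6a3 (-0.094) and Thbs1 (-0.31). With the acinar covariate it turned for Bgn (-0.032), Col6a2 (-0.53), Col6a3 (-0.21), Col8a1 (0.15), Fbln2 (1.09), Mgp (-0.29), Sparcl1 (0.10) and Thbs1 (-0.77). On the 6 libraries numbered 1, 3 and 4, with or without the block, it turned for Col4a2 (0.41), Col9a2 (0.088), Mgp (-0.29) and Thbs1 (-0.080). Over the fits that each left out 1 library, the sign changed for Agrn (-1.66 to 1.80), Bgn (-1.07 to 1.57), Col4a2 (-0.96 to 0.23), Col4a3bp (-0.22 to 0.13), Col6a1 (-1.12 to 2.39), Col6a2 (-0.74 to 2.15), Col6a3 (-0.16 to 0.27), Col9a2 (-0.73 to 0.045), Lamc1 (-0.96 to 0.23), Mgp (-0.29 to 0.89), Sparcl1 (-0.98 to 0.0080) and Thbs1 (-0.44 to 0.49). One count was worth 0.0221 to 0.0284 CPM, and Agrn, at 0 estimated counts in PAHSA replicate 3 but at 271, 250 and 525 in the other PAHSA libraries, shows zeros beside well-counted values; the part of depth in such zeros was not tested.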
